A study of Mus musculus with 2 samples.

Results

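Semaphorins, plexins, neuropilins, ephrins and Eph receptors are cell-surface and secreted guidance proteins, and their transcripts were described here in the left cerebral cortex of the mouse. The genes were chosen by symbol: every gene with a protein-coding transcript whose symbol starts with Sema, Plxn, Nrp1, Nrp2, Epha, Ephb, Efna or Efnb. This gave 53 genes of the 55536 in the gene table: 20 semaphorins, 9 plexins, 2 neuropilins, 9 EphA receptors, 5 EphB receptors, 5 ephrin-A ligands and 3 ephrin-B ligands. Total RNA-seq was made from 2 adult males, replicates 1 and 2 of a single group, aged 8 to 10 months, of the strain 5xFAD/CAST. Both animals thus shared genotype label, tissue, sex and age range, so nothing here compares mice with and without the transgenes. 5xFAD mice are a transgenic model of amyloid deposition whose transgenes are driven by the Thy1 promoter, which is active in neurons, and CAST is a wild-derived inbred strain whose sequence differs from the reference genome. The samples have separate biosample labels and are labelled biological replicates, but carry a common donor label. It was read here as naming the strain, and if it named a single mouse, every SD below would measure the spread between its samples. Each library was made from 300 ng of RNA with a directional kit and spike-in RNA. The libraries held 33925221 and 32380330 reads on genes, of which 92334 and 92203 fell on the 53 genes.

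Semaphorins are ligands that turn or collapse growing axons and adjust synapses. Plexins are their main receptors and act on small GTPases of the cytoskeleton, and neuropilins are co-receptors that bind most secreted class 3 semaphorins. Eph receptors are tyrosine kinases that meet ephrins on the surface of a neighbouring cell. Ephrin-A ligands are held in the membrane by a lipid anchor and mostly bind EphA receptors, and ephrin-B ligands span the membrane and mostly bind EphB receptors. In the adult cortex both systems are known from dendritic spines, interneuron synapses, glia and blood vessels.

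Levels are deposited TPM, the share of a transcript among all molecules of the library after correction for its length, so levels of different genes can be set side by side. Values in replicate 1 are given before those in replicate 2. A gene counted as detected at 1 TPM or more in both libraries, and 50 of the 53 genes were, against 59.6% of all 21901 genes with a protein-coding transcript. The median of the 53 genes was 11.1 TPM, against 4.01 TPM over all of those genes. Over detected genes alone the order was the other way, with 11.7 TPM for the 50 guidance genes and 15.1 TPM for all detected coding genes. In whole tissue, fewer cells of a type and less RNA per cell cannot be told apart.

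**Figure D1:**
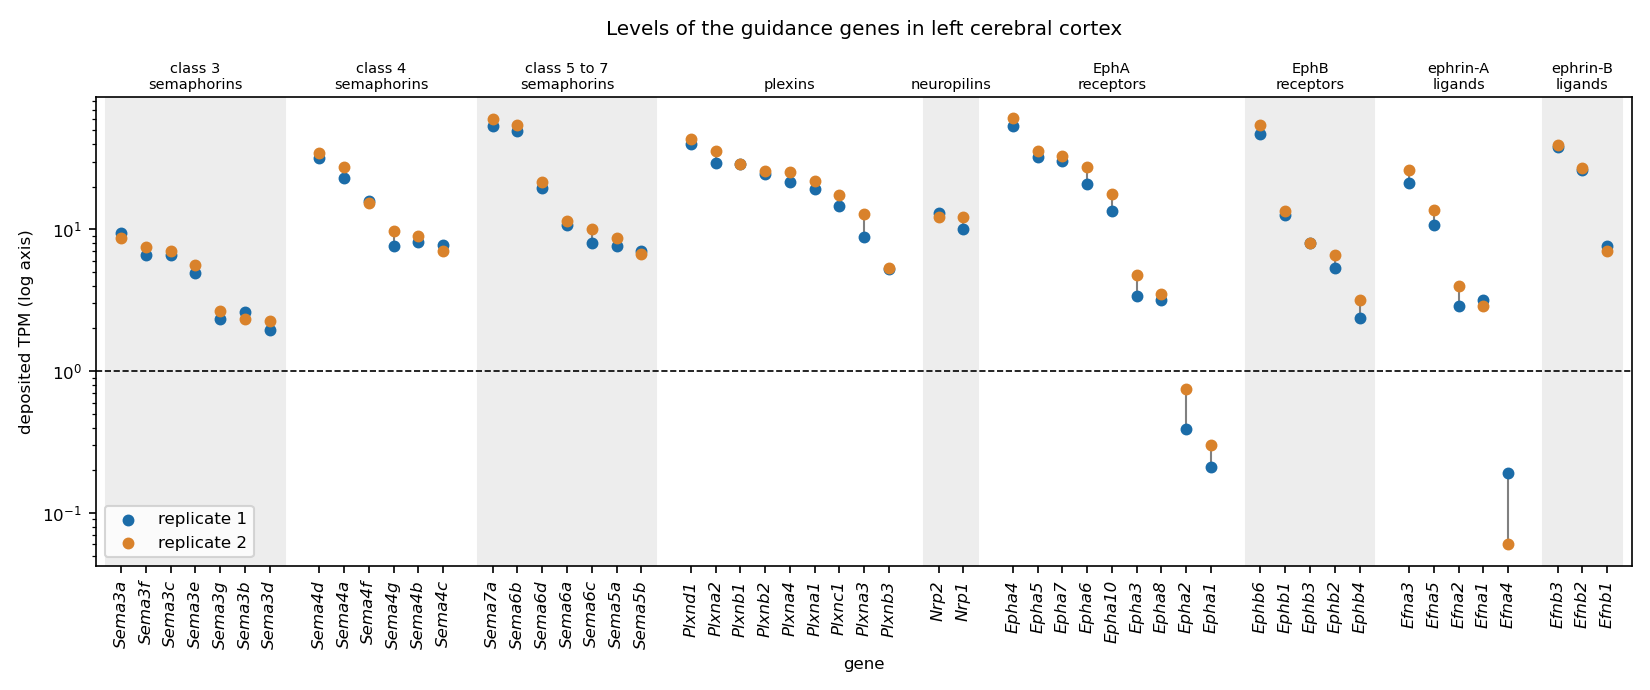
Deposited TPM (log axis) of the 53 guidance genes, grouped by subfamily, with 1 point per replicate and a dashed line at 1 TPM. Efna4, Epha1 and Epha2 lie under the line in both replicates, and Epha4 and Sema7a lie highest.

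The 10 highest levels were shared among the families: 4 Eph receptors (Epha4, Ephb6, Epha5 and Epha7), 3 semaphorins (Sema7a, Sema6b and Sema4d), 2 plexins (Plxnd1 and Plxna2) and 1 ephrin (Efnb3). When the genes of each subfamily were ordered by level, the values of neighbouring genes in the 2 animals overlapped in 10 of 44 neighbouring pairs. The other 34 pairs were apart in both animals, although 2 animals give only a rough spread.

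Among the 20 semaphorins, the membrane-anchored classes held most of the transcripts. Sema7a (ENSMUSG00000038264.8, chromosome 9, 57940112 to 57962865 in mm10), a lipid-anchored semaphorin that binds Plxnc1 and integrins, was at 53.4 and 60.2 TPM. Sema6b (ENSMUSG00000001227.12, chromosome 17, 56123085 to 56140343), a transmembrane ligand of class A plexins, was at 49.8 and 54.6 TPM. The values of this pair overlapped between the animals, so their order was not resolved. Sema6d, a further transmembrane ligand of class A plexins, was lower, at 19.7 and 21.5 TPM. The other 4 genes of classes 5 to 7 (Sema6a, Sema6c, Sema5a and Sema5b) had means of 6.84 to 11.1 TPM.

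In class 4, Sema4d, a transmembrane ligand of Plxnb1 known from oligodendrocytes and immune cells, was at 32.1 and 34.5 TPM. Sema4a, a transmembrane semaphorin also known from immune cells, was at 23.2 and 27.7 TPM. Sema4f was at 15.7 and 15.4 TPM, and these 3 genes stood apart from each other in both animals. Sema4g, Sema4b and Sema4c had means of 7.40 to 8.62 TPM.

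The 7 secreted class 3 semaphorins had the lowest summed level of the semaphorin groups, although single genes of the groups overlapped. Sema3a, a repellent of cortical axons that signals through Nrp1 and class A plexins and is held in perineuronal nets, was at 9.35 and 8.71 TPM. Sema3f, which acts through Nrp2, was at 6.63 and 7.55 TPM, and Sema3c was at 6.57 and 6.98 TPM. Sema3f and Sema3c overlapped, and all 7 genes were detected, with means from 2.11 TPM (Sema3d) to 9.03 TPM (Sema3a). Summed per animal, class 3 held 35.2 ± 1.20 TPM, class 4 held 98.8 ± 6.24 TPM and classes 5 to 7 held 164.7 ± 11.95 TPM (mean ± SD, n = 2). The summed levels of the 3 groups did not overlap.

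All 9 plexins were detected, and their median of 23.5 TPM was above that of the 20 semaphorins, 8.58 TPM. Plxnd1 (ENSMUSG00000030123.15, chromosome 6, 115954811 to 115995005), the receptor that Sema3e binds without a neuropilin, led with 40.2 and 43.5 TPM. Plxna2, a receptor of class 6 semaphorins, was at 29.2 and 35.7 TPM. Plxnb1, the receptor of Sema4d, was at 28.9 and 28.7 TPM. By gene TPM, Plxnd1 stood above both in each animal. Transcripts that retain an intron held 34.7% and 29.3% of the TPM of Plxnd1. Its coding transcript Plxnd1-201 was at 26.3 and 30.7 TPM, slightly below Plxna2-201, the coding transcript of Plxna2, at 26.5 and 31.5 TPM. Plxnb3, a plexin known from oligodendrocytes, was lowest at 5.29 and 5.32 TPM, in libraries where all 5 oligodendrocyte markers were detected, with a median of 98.3 TPM.

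The neuropilins were near each other. Nrp1, which binds Sema3a and vascular endothelial growth factor, was at 10.1 and 12.3 TPM, and Nrp2, the co-receptor of Sema3f, was at 13.0 and 12.3 TPM. Nrp2 was the higher of the pair in each animal, with a gap in replicate 2 much smaller than that in replicate 1.

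Known ligand and receptor pairs differed in which side was higher. Sema3e was at 5.28 ± 0.467 TPM (SD, n = 2) and its receptor Plxnd1 at 41.9 ± 2.30 TPM. Sema7a was at 56.8 ± 4.79 TPM and its receptor Plxnc1 at 16.1 ± 2.06 TPM. Sema4d, at 33.3 ± 1.70 TPM, and its receptor Plxnb1, at 28.8 ± 0.156 TPM, were closer to each other. In each of these 3 pairs the deposited RSEM-format gene values of ligand and receptor did not overlap. By the kallisto-format table Sema4d was at 36.4 and 36.8 TPM and Plxnb1 at 37.6 and 30.5 TPM, so that their order turned in replicate 1. The RSEM-format value of Sema4d includes the incomplete coding transcript Sema4d-204, at 13.17 and 14.79 TPM. Its full-length forms Sema4d-201, Sema4d-202 and Sema4d-203 were at 8.62, 2.05 and 4.23 TPM in replicate 1. In replicate 2 these forms were at 13.67, 2.18 and 1.5 TPM. Their sum lay below Plxnb1-201, at 18.38 and 18.45 TPM, in each animal. The order of this pair thus depended on the transcripts counted.

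Among the 8 ephrins, the ephrin-B ligands held more transcripts than the ephrin-A ligands. Efnb3, a transmembrane ligand known from axon guidance at the midline, was at 38.3 and 39.5 TPM. Efnb2, which is also a vascular ligand of Ephb4, was at 26.3 and 27.0 TPM. Efnb1, whose gene lies on the X chromosome, was at 7.61 and 7 TPM. These 3 genes kept the same order in both animals, and their sum was 72.8 ± 0.948 TPM, against 42.7 ± 6.12 TPM for the 5 ephrin-A ligands.

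Among the ephrin-A ligands, Efna3 was at 21.4 and 26.4 TPM, Efna5, a ligand that patterns topographic maps, was at 10.8 and 13.8 TPM, and Efna2 was at 2.88 and 3.97 TPM. Efna1 was at 3.16 and 2.87 TPM, overlapping Efna2. Efna4 was not detected by the rule, at 0.19 and 0.06 TPM from 7 and 2 reads. The latter is under the floor of 3 reads, which in these libraries equals 0.0884 and 0.0926 CPM.

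Efna1, Efna3 and Efna4 lie within a short stretch of chromosome 3, and the highest and the lowest ephrin-A ligand are next to each other among the guidance genes. Efna3 (ENSMUSG00000028039.11, 89313899 to 89322965, minus strand) and Efna4 (ENSMUSG00000028040.7, 89333390 to 89338028, minus strand) are 10.4 kb apart, and Efna1 lies 32.8 kb from Efna3. For Efna3 and Efna4, the 200 bases just upstream of the outermost annotated start of each are shown. They are from RefSeq's sequence of GRCm38.p6, on the minus strand and 5′ to 3′. The positions are chr3:89322966-89323165 for Efna3 and chr3:89338029-89338228 for Efna4. Capitals mark CG dinucleotides.
Efna3: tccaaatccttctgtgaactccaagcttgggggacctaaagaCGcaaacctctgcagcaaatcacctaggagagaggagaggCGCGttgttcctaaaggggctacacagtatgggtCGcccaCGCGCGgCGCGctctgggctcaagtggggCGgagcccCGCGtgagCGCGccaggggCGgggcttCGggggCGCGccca
Efna4: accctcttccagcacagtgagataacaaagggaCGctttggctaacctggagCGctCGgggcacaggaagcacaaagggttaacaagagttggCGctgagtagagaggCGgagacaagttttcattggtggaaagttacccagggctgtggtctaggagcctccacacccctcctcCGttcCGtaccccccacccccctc
The Efna3 stretch held 18 CG dinucleotides, a GC content of 65% and 2 matches to GGGCGG on either strand, the core of a GC box. The Efna4 stretch held 7 CG dinucleotides, a GC content of 57.5% and 0 matches. Over the RefSeq promoter table, with windows of 300 bases around the start, 47 of the 53 genes had an entry. Their median was 22 CG dinucleotides (range 2 to 56), against 14 in 16519 genes with a protein-coding transcript. GGGCGG was found in 36 of the 47 windows (76.6%), against 48.0% of those genes and 35.9% of all 27025 windows. The start in the table was within 1 kb of the outermost annotated start for 44 of the 47 genes. The exceptions were Plxna2, Sema4d and Sema3a, whose windows lay 1.61, 37.1 and 271 kb inside the gene. The windows of Sema3a and Sema4d, at these internal starts, held the fewest CG dinucleotides, and that of Epha8 the most. Without the 3 exceptions the median was 22.5 and the lowest count 4. In these windows Efna3 held 22 CG dinucleotides and Efna1 held 20, both with a match to GGGCGG on either strand. Efna4 held 11, without a match. Efna1 was nonetheless at only 3.16 and 2.87 TPM. These matches are descriptions of letters, and no binding or methylation was measured. A link between them and the levels was not tested.

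Among the 14 Eph receptors, 12 were detected. Epha4 (ENSMUSG00000026235.14, chromosome 1, 77367185 to 77515088), which binds ephrins of both classes, had the highest mean of all 53 genes, with 53.7 and 60.7 TPM from 6347 and 6341 reads. Its values overlapped those of Sema7a. Epha5, a neuronal receptor of ephrin-A ligands, was at 32.5 and 35.5 TPM, and Epha7 was at 30.3 and 32.8 TPM, so that this pair overlapped too.

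Of the EphB receptors, Ephb6 (ENSMUSG00000029869.7, chromosome 6, 41605482 to 41620509) was at 47.2 and 54.3 TPM. Ephb6 is a receptor whose kinase domain is inactive. Ephb1 followed at 12.6 and 13.5 TPM and Ephb3 at 7.97 and 8.05 TPM, both receptors with an active kinase. Ephb2, an EphB receptor of excitatory synapses, and Ephb4, the receptor of venous endothelium, had means of 5.97 and 2.76 TPM. Ephb6 thus stood above the other 4 EphB receptors in both animals. Epha10, the other receptor with an inactive kinase, was at 13.4 and 17.8 TPM.

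Epha1 and Epha2, receptors known from epithelia, were not detected by the rule. Epha1 was at 0.21 and 0.30 TPM from 16 and 12 reads. Its exons overlap those of Zyx on the opposite strand over 236 bases, and Zyx held 1074 and 984 reads. The strand setting of the counting is not given in the sources used here, so reads of this overlap cannot be assigned. Epha2 was at 0.39 and 0.75 TPM from 37 and 51 reads, and its kallisto-format level was 2.57 times as high, at 1.12 and 1.81 TPM. Of that kallisto-format level, the coding transcript Epha2-201 held 35.9% and 25.6%, and the rest was on processed transcripts without a coding frame. Epha1 lies 738 kb from Ephb6 on chromosome 6.

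**Figure D2:**
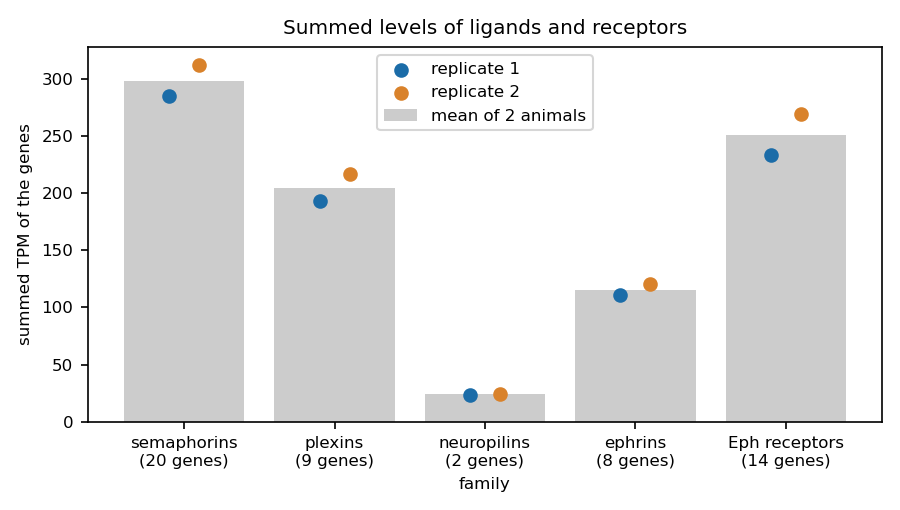
Summed deposited TPM of the semaphorins, plexins, neuropilins, ephrins and Eph receptors (bars, mean of 2 animals, axis from 0), with 1 dot per replicate. The semaphorins held the most, with a mean of 298.7 TPM, followed by the Eph receptors (251.4 TPM) and the plexins (204.7 TPM). The neuropilins held the least, 23.8 TPM.

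Set against their receptors, the semaphorins and ephrins differed in sign. The log2 ratio of the summed TPM of semaphorins over plexins and neuropilins was 0.40 and 0.37 (mean 0.39 ± 0.02, SD, n = 2). That of ephrins over Eph receptors was −1.08 and −1.16 (mean −1.12 ± 0.06). These sums depend on how many genes each family has. With the median gene in place of the sum, on log2(TPM + 0.1), the semaphorins were 1.28 below their receptors (a difference of −1.28), and the ephrins differed from the Eph receptors by −0.12.

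The guidance pathways around these genes were largely detected too. Of 13 semaphorin co-receptors, 11 were detected. The highest were Nrcam, a cell adhesion molecule of the L1 family, at 164 and 189 TPM, Lrp1, an endocytic receptor, at 107 and 131 TPM, and L1cam at 54.4 and 69.2 TPM. The exceptions were Cd72 and Timd2, which are known from immune cells. All 27 genes of semaphorin signalling were detected. They were led by Cfl1, the actin-severing cofilin, at 561 and 611 TPM, Dpysl2 (CRMP2), a microtubule regulator downstream of Sema3a, at 275 and 296 TPM, and Mical2, an enzyme that oxidises actin, at 161 and 174 TPM.

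Of the genes of Eph signalling, 22 of 22 were detected. The leading genes were Chn1, a Rac-inactivating protein that acts below Epha4, at 549 and 599 TPM, Kalrn, an exchange factor of dendritic spines, at 176 and 212 TPM, and Ngef (ephexin), at 145 and 168 TPM. Of 15 genes of ephrin shedding, adaptors and reverse signalling, 14 were detected. Sdcbp (syntenin), a PDZ protein that binds ephrin-B tails, was at 77.2 and 83.9 TPM. Dab1, an adaptor of Reelin signalling, was at 42.4 and 44.7 TPM, and Tiam2, a Rac exchange factor, was at 31.4 and 36.7 TPM. The exception was Mmp9, an extracellular protease. Medians of the 4 lists were 4.84, 42.1, 23.5 and 20.01 TPM, in the order of their description.

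The annotation gives these 53 genes 316 transcripts, of which 155 are protein-coding, 90 retain an intron, 49 are processed transcripts without a coding frame and 22 are targets of nonsense-mediated decay. Short reads are shared among transcripts of a gene, so values per transcript are estimates. Of the 50 genes with a mean of at least 1 TPM, the median gene had 89.3% of its TPM on protein-coding transcripts, against 89.96% over all coding genes at that level. The leading transcript was not protein-coding in 1 of the 50 genes (7.13% over all), and under 50% of the TPM was on protein-coding transcripts in 3 of the 50 (9.43% over all). In 22 genes the coding share was over 90%, and in 9 it was 100% in both animals.

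**Figure D3:**
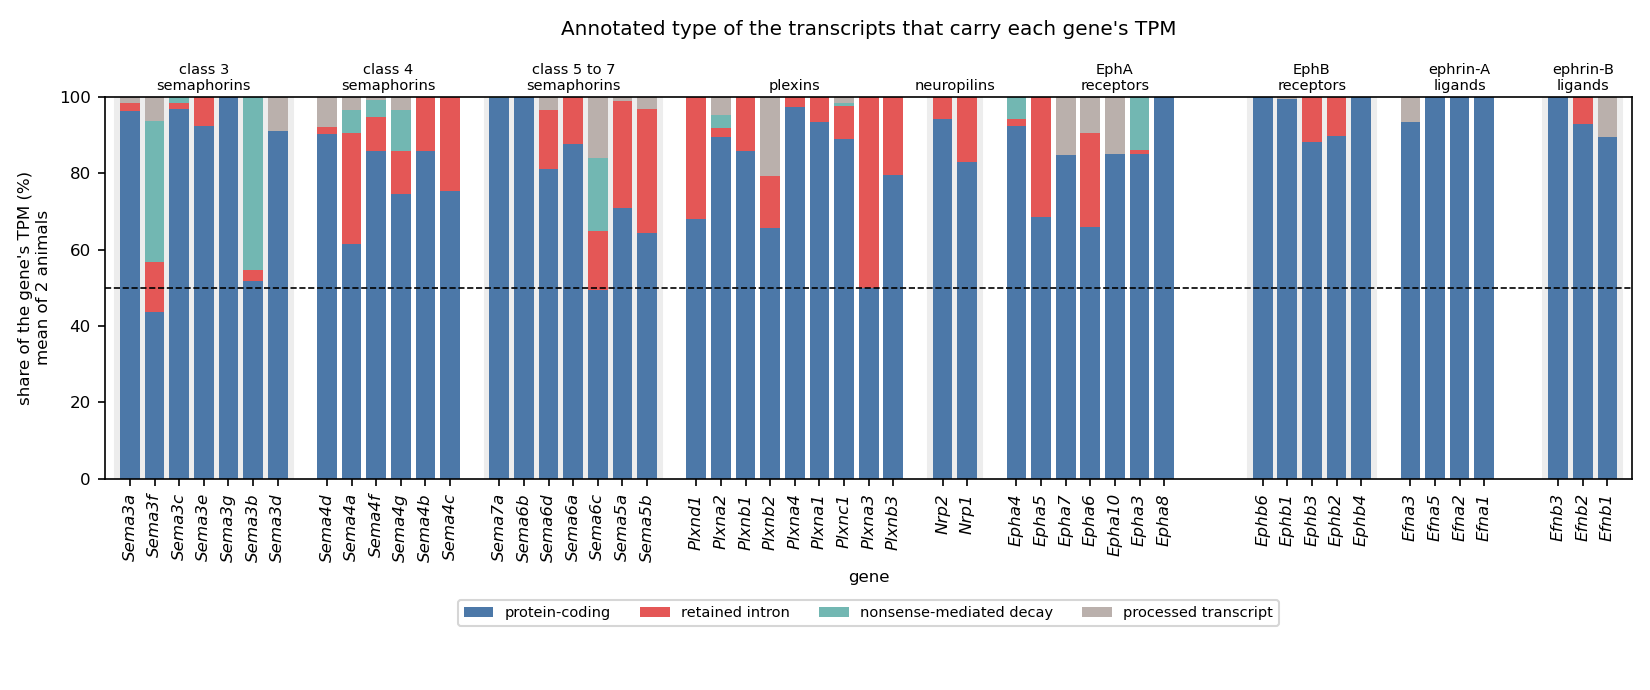
Share of each gene's TPM by transcript type (percent, mean of 2 animals, stacked to 100%) for the 50 genes with a mean of at least 1 TPM, with a dashed line at 50%. Sema3f, Sema6c and Plxna3 have the coding part under the line, and Sema3b has a leading transcript annotated for nonsense-mediated decay.

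The genes at the low end were a pair of class 3 semaphorins, a class 6 semaphorin and a class A plexin. Sema3f had 51.1% and 36.2% of its TPM on coding transcripts, Sema6c 54.1% and 45.0%, and Plxna3, a receptor used with neuropilins by class 3 semaphorins, 57.2% and 42.5%. By reads in place of TPM, Plxna3 had 90.3% and 81.0% on coding transcripts. Its coding transcript Plxna3-201, of 6943 bases, was at 5.04 and 5.47 TPM, and the leading transcript with a retained intron, Plxna3-208, of 806 bases, was at 1.03 and 2.46 TPM. Sema3f had 58.2% and 56.2% and Sema6c 64.0% and 68.6% by reads. In Sema3b, a secreted semaphorin, the animals differed: 77.3% of its TPM was on coding transcripts in replicate 1 and 26.4% in replicate 2. The coding transcript Sema3b-205 was at 1.26 and 0 TPM, and Sema3b-206, annotated for nonsense-mediated decay, at 0.59 and 1.60 TPM. By reads, coding transcripts of Sema3b held 68.4% and 12.9%. These values rest on 154 and 139 reads for the whole gene.

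In Epha7, shortened coding forms outweighed the full-length form in TPM. Shortened EphA7 forms that lack the kinase domain are known to dampen the kinase response of full-length receptors and to favour adhesion in the developing brain. The gene (ENSMUSG00000028289.12, chromosome 4, 28813131 to 28967499, plus strand) has a full form, Epha7-201, of 998 residues, and shortened forms, Epha7-202 of 610 residues and Epha7-204 of 626 residues. They share their first 1798 coding bases. After these, Epha7-202 has 32 coding bases of its own, Epha7-204 has 80, and Epha7-201 goes on for 1196 bases. The point where the forms part is shown because it separates the transcripts: the last 30 shared coding bases are in lower case, and the following coding bases of each form, up to 60, are in capitals. They were read from the annotated transcripts of mm10, plus strand, 5′ to 3′, and begin at base 28943349 of chromosome 4.
Epha7-201: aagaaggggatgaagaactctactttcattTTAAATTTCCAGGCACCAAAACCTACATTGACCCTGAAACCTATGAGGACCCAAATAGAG
Epha7-202: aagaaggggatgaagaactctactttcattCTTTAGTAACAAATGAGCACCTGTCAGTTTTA
Epha7-204: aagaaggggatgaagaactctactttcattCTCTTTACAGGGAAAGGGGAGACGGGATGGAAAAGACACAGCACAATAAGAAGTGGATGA
The stretch shown spans introns and ends at 28947587 for Epha7-201, 28946250 for Epha7-202 and 28966582 for Epha7-204.

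Epha7-202 was at 12.1 and 14.5 TPM, Epha7-204 at 7.12 and 6.39 TPM, and Epha7-201 at 4.52 and 5.91 TPM. The long Epha7-203, of 994 residues, was at 1.30 and 1.76 TPM. Summed, the shortened forms held 63.4% and 63.6% of the gene's TPM, and the long forms 19.2% and 23.4%. The order was the same in both animals and by the kallisto-format table, where the shortened forms held 60.4% and 57.7% and the long forms 19.3% and 22.6%. By reads the gap narrowed, with 53.3% and 49.1% on the shortened forms and 41.5% and 45.8% on the long forms, since a longer transcript gives more reads per molecule.

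**Figure D4:**
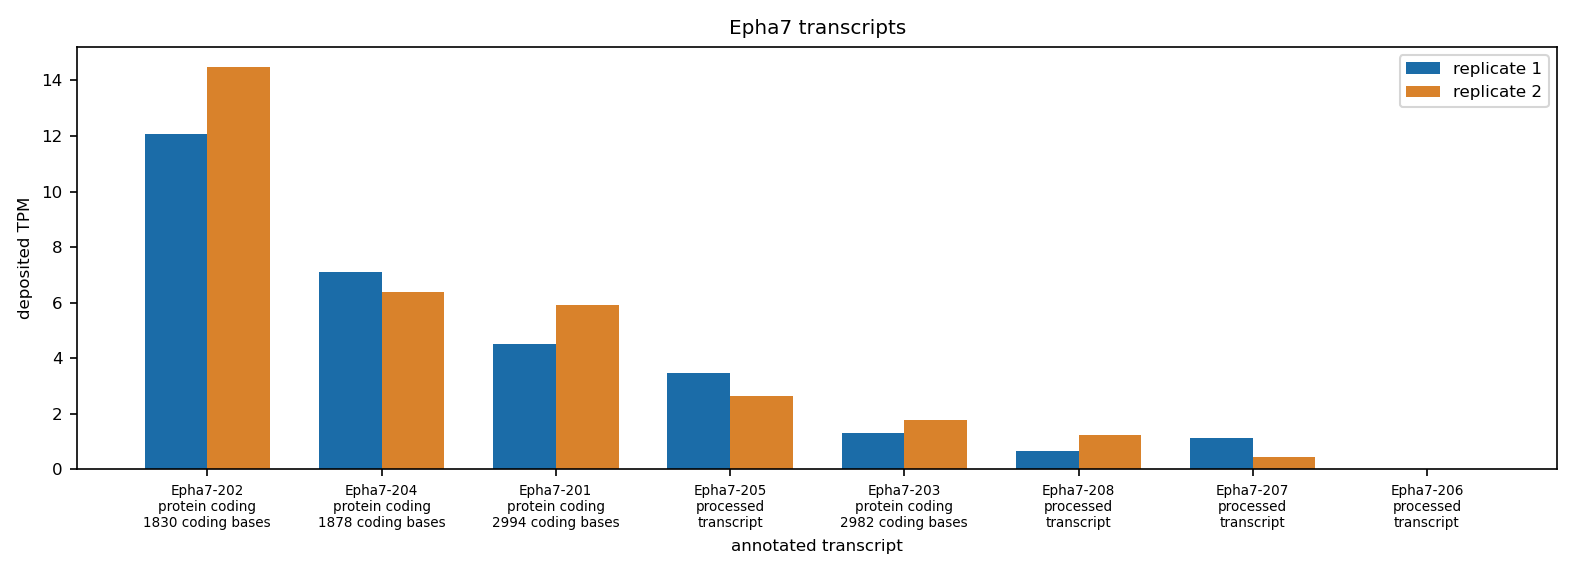
Deposited TPM of each annotated Epha7 transcript, with 1 bar per replicate. Epha7-202 is highest in both replicates, at 12.1 and 14.5 TPM, and the full form Epha7-201 is below Epha7-204, at 4.52 and 5.91 TPM.

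Across the 12 detected Eph receptors, Epha7 was the one with under 50% of its TPM on transcripts that code for at least 80% of the longest coding frame. The next lowest was Epha5, with 56.7% and 55.2%. In Epha5 too, shorter forms were above the longest: Epha5-202, Epha5-201 and Epha5-204 (894, 876 and 819 residues) together held 49.2% and 51.1% of the TPM. Epha5-205, of 1040 residues, held 11.2% and 10.7%, and Epha5-203, of 1006 residues, held 9.02% and 5.99%. Unlike the shortened Epha7 forms, Epha5-202 and Epha5-201 code for more than 80% of the longest frame. Over all 50 guidance genes at 1 TPM or more, 7 were under 50% by this measure, against 20% of all coding genes at that level. The others were Sema3b, Sema4a, Sema3f, Sema6c, Sema4d and Plxna3. This measure was chosen after its values were seen. In Sema4d, the incomplete coding transcript Sema4d-204 held 41.1% and 42.9% of the TPM and 18.4% and 18.1% of the reads. In Ephb6, Ephb6-201 of 1014 residues held 69.2% and 71.8% of the TPM. The short fragment Ephb6-203 held 30.8% and 28.2% of the TPM and 4.19% and 3.71% of the reads. Epha10-201, which codes for 292 residues, held 18.3% and 19.2% of the TPM of Epha10.

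The neuropilins differed in how their transcripts were spread. Nrp1 was mostly a single form, Nrp1-201 of 923 residues, with 85.1% and 81.1% of the TPM. Nrp2 was spread over forms of similar length. Nrp2-205 (901 residues) held 41.1% and 39.1%, Nrp2-204 (909 residues) 25.8% and 28.8%, Nrp2-202 (926 residues) 13.1% and 12.7%, and Nrp2-203 (914 residues) 11.2% and 10.7%. The kallisto-format table gave Nrp2-203 0.0255% and 10.2%, so the split among the smaller forms depended on the quantification in replicate 1.

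Between the animals, differences are log2 ratios of replicate 2 over replicate 1 of scaled expected counts, with intervals of 95% that cover counting error only. For a call, the ratio had to reach 2-fold, with 10 or more reads in 1 of the libraries and a counting interval, set at an error level of 0.001, that left out equal levels. Of the 52 guidance genes that could be assessed, 0 were called higher in replicate 2 (0.29% of all 15156 coding genes) and 0 were called higher in replicate 1 (0.495% of them). With counts this close to the background, the set does not stand apart from it by this 2-fold call. No test over animals was made in a group of 2. The median absolute log2 ratio was 0.09 in the guidance genes and 0.10 over all assessed coding genes.

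**Figure D5:**
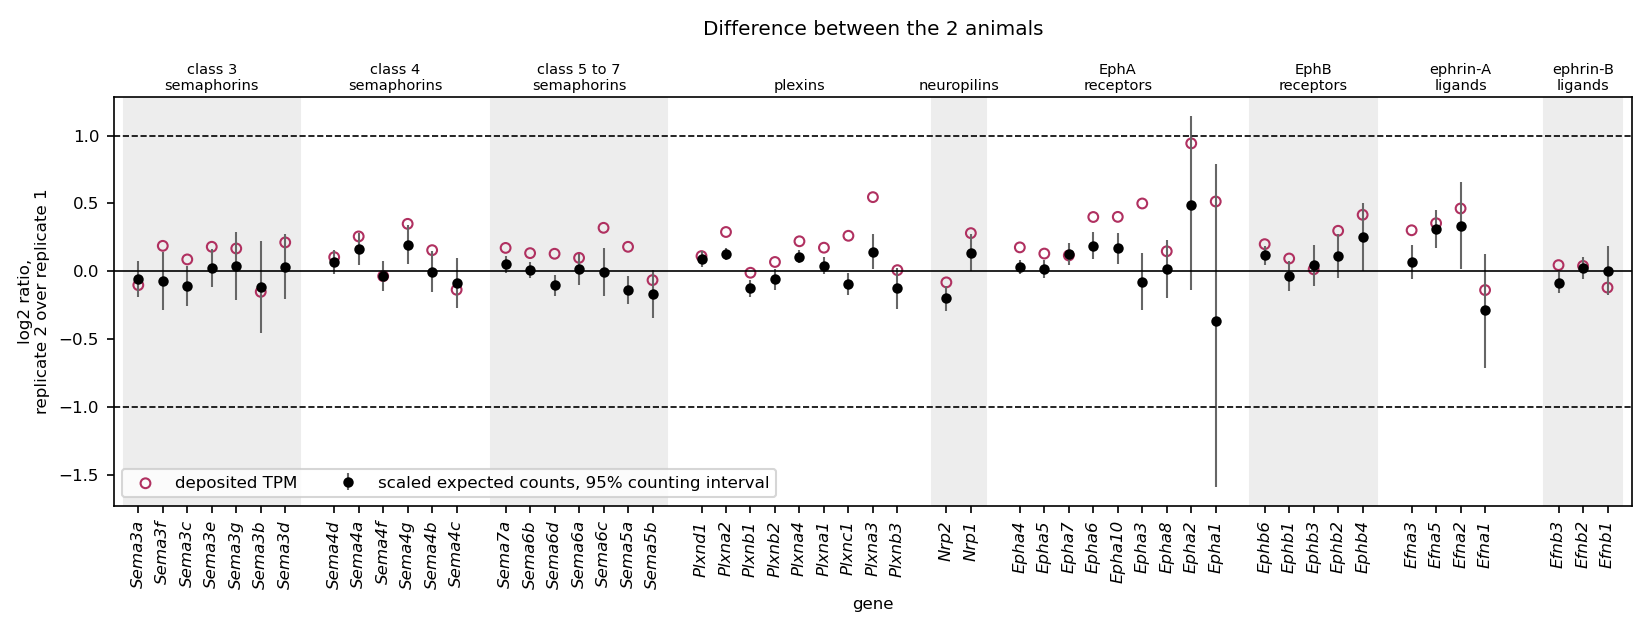
Log2 ratio of replicate 2 over replicate 1 for 52 guidance genes: black points are scaled expected counts with their 95% counting intervals, open circles are ratios of deposited TPM, and dashed lines mark a 2-fold difference. Every black point lies inside the dashed lines, and the open circles lie above 0 for 43 of the 52 genes.

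Among the 49 genes with a mean count of at least 100, the largest ratios belonged to an ephrin pair. Efna2 had 146 and 180 reads, a log2 ratio of 0.34 (95% interval 0.01 to 0.66). Efna5 had 765 and 925 reads, a log2 ratio of 0.31 (0.17 to 0.45). Both were thus higher in replicate 2, by less than 2-fold. Ephb4 had 250 and 291 reads and a log2 ratio of 0.25 (0.00 to 0.50), and Sema4g had 769 and 861 reads and a ratio of 0.20 (0.06 to 0.34). Nrp2 was the largest in the other direction, with 2012 and 1710 reads and a log2 ratio of −0.20 (−0.29 to −0.11). For 20 of the 52 genes the interval left out 0. Of the 52 genes, 14 had an interval above 0, higher in replicate 2, against 12.7% of all assessed coding genes. In 6 of the 52 it lay below 0, higher in replicate 1, against 15.1% of all assessed coding genes. Such intervals narrow as the read count of a gene rises. Those 6 were Nrp2, Sema5a, Plxnb1, Sema6d, Plxnc1 and Efnb3. Efna4 was not assessed, and its log2 ratio of −1.55 had an interval of −5.08 to 0.62.

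The ratio of scaled counts was above 0 in 31 of the 52 genes (47.4% of all assessed coding genes), and the deposited TPM was higher in replicate 2 in 43 of the 52 (73.8% of all). The median log2 ratio of TPM was 0.17 in the guidance genes and 0.12 over all assessed coding genes, so a higher TPM in replicate 2 was common to most genes. In 7 genes the ratio of TPM and that of counts were more than 0.3 apart on the log2 scale (10.6% of all assessed coding genes): Epha3, Epha2, Epha1, Sema6c, Sema5a, Plxnc1 and Plxna3. Epha3, a receptor of ephrin-A ligands, had 394 and 365 reads, a log2 ratio of counts of −0.08 and of TPM of 0.50. Its deposited effective length fell from 4670 bases in replicate 1 to 3424 bases in replicate 2, since the length follows the estimated mix of transcripts. Plxna3 had ratios of 0.14 and 0.55 and effective lengths of 4339 and 3586 bases.

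Markers of the tissue were checked beside these ratios. All markers of excitatory neurons, inhibitory neurons, astrocytes, oligodendrocytes, their precursors, microglia, endothelium, mural cells, meninges and striatum were detected, and none of these genes reached the 2-fold call. Most glial and vascular markers nonetheless had a log2 ratio below 0: 4 of 4 in astrocytes (median −0.14), 5 of 5 in oligodendrocytes (−0.13), 4 of 4 in microglia (−0.16), 3 of 3 in mural cells (−0.12) and 3 of 4 in endothelium (−0.21). This was not limited to glia and vessels. Ratios were below 0 in 3 of 3 inhibitory neuron markers (median −0.08), 2 of 2 precursor markers (−0.07) and 3 of 4 markers of meninges (−0.08). They were below 0 in 2 of 5 excitatory neuron markers (median 0.03) and 0 of 5 striatum markers (0.05). The median log2 ratio of the guidance genes, for comparison, was 0.02, and their median absolute log2 ratio was 0.09. Choroid plexus markers were called higher in replicate 1 in 5 of 5 genes, with summed levels of 550 and 106 TPM, and thalamus markers in 1 of 4, with summed levels of 42.4 and 25.5 TPM. No marker of either list was at 0. The 5 striatum markers, of which 0 were called, had summed levels of 419 and 489 TPM. What any striatal, thalamic or choroid plexus tissue added to the levels of the guidance genes was not tested. The part of any of these marker shifts in the ratios of the guidance genes was not tested.

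The 2 quantifications agreed to within 2-fold for all 50 genes with a mean of at least 1 TPM, that is 0 of 50 were further apart, against 0.903% over all coding genes at that level. The kallisto-format level was between 0.743 and 1.39 times the RSEM-format level.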

How the data were processed

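Total RNA of 2 cortex samples, separate biosamples of 1 group, was analysed from deposited tables. Per the file headers, the authors deposited RSEM-format gene and transcript tables with expected counts, TPM and FPKM, and a kallisto-format transcript table with estimated counts and TPM, summed here per gene. A deposited text description names mm10 and GENCODE M21. For aligner, versions and strand setting, nothing is given in the sources used here, and CAST alleles were not considered. Expected counts were rounded, 96 spike-ins were kept apart from genes, and library sizes were scaled by TMM (edgeR 4.0.16, R 4.3.3), with 0.5 reads added to each library. Counting intervals are Clopper-Pearson intervals (scipy 1.17.1). Libraries carried no stated molecular identifiers, so reads may be copies of 1 molecule, and intervals and floors cover counting error only. The ratio procedure was tested on simulated data.

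The genes, the marker and pathway lists and the rules were chosen with earlier results of these data known. Values in both animals are given by rule for the 3 highest genes of each subfamily, genes under 1 TPM, genes called different, the 5 genes whose ratio was farthest from 0 among those averaging 100 reads or more, and genes over 2-fold apart between quantifications. The rule also takes genes with under 50% of TPM on coding transcripts or a leading transcript that is not coding, Ephb6, Epha10, Plxnb3 and Sema4d, and the 3 highest genes of each pathway list. Further genes were named after their values were seen. Alternatives used other scalings (DESeq2 1.42.0 size factors, total counts, spike-ins), other units, pseudocounts, filters and folds, and each animal left out. Promoter windows are RefSeq's, of GRCm38.p6.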

Additional observations from a re-analysis of the deposited data

How the results depend on the processing

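The 50 detected genes became 49 to 52 under the alternatives, and 0 genes were called different between the animals under every scaling, filter, pseudocount and fold tried. The median level of 11.1 TPM was 25.5 when TPM was taken over nuclear protein-coding genes alone and 7.86 as FPKM, which are other denominators, and 10.1 to 12.3 with either animal left out. The log2 ratio of semaphorins over their receptors changed sign when family medians replaced sums, to −1.28 with a pseudocount of 0.1 and −1.20 with 1. It was 0.47 by kallisto-format TPM and 0.37 to 0.40 with either animal left out. That of ephrins over Eph receptors was −0.12 and −0.10 with medians, −1.04 by kallisto-format TPM and −1.16 to −1.08 with either animal left out. Genes with under 50% of their level on coding transcripts numbered 1 in place of 3 by kallisto-format TPM, namely Plxna3. By expected counts, an alternative chosen after seeing the data, they numbered 1, namely Sema3b, which was not among the 3. With either animal left out, such genes numbered 0 to 4. The cause was not tested. Of 477 recomputed ratios of single genes, 464 lay inside their counting interval. The filters and the fold do not enter the ratio, so under those alternatives it could not move. This count is therefore no measure of stability. The kallisto-format level was within 1 SD of the main level for 33 of 53 genes. Genes with a ratio above 0 numbered 30, 34 and 39 of 52 with DESeq2 size factors, total counts and spike-in totals, against 31, so the direction of small ratios depends on the scaling. By kallisto-format counts, another quantification, they numbered 24 of 53. Depth limits Efna4, Epha1 and Epha2, and a group of 2 animals limits every SD. No paired analysis was possible because there was 1 group.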

Other observations

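Symbols starting with Plxna4 also name 3 antisense genes without a coding transcript, which were left out of the 53 genes. Plxna4os1 held 6 and 6 reads, Plxna4os2 held 1 and 1, and Plxna4os3, whose exons overlap those of Plxna4, held 0 and 0. In all, 14 pairs of a guidance gene and another gene shared exonic bases. Besides Epha1 and Zyx, the partner of Sema4c, D430040D24Rik, lies on the opposite strand over 334 bases and held 41 and 33 reads. That of Efna3, Gm15998, shares 344 bases and held 11 and 8 reads. Expected counts, deposited with 2 decimals, were exactly whole in both libraries for 51 of the 53 genes, the exceptions being Plxnc1 and Sema3a.

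Several genes that are next to each other among the guidance genes of a chromosome had unlike levels. Genes outside the set that may lie between them were not considered. On chromosome 9, Sema3b (2.60 and 2.34 TPM) and Sema3f (6.63 and 7.55 TPM) are 72.3 kb apart, and on chromosome 4, Ephb2 (5.35 and 6.58 TPM) and Epha8 (3.16 and 3.50 TPM) are 93.4 kb apart. Sema3d, Sema3a and Sema3e follow each other on chromosome 5 at means of 2.11, 9.03 and 5.28 TPM.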
